A study of Mus musculus with 33 samples.

Results

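The genes described here are 8 that bear on the cadherin switch, taken by name from a table of 55401 genes: the transcriptional repressors Snai1, Snai2, Zeb1 and Zeb2, and the cell adhesion genes Cdh1, Cdh2, Cdh6 and Cdh11. All 8 were found and all 8 were among the 20073 genes kept by a filter on low counts. They were measured by sequencing of polyadenylated RNA from the frontal bone of the mouse calvaria, the roof of the skull, in 33 libraries. Each of 11 stages, from embryonic day 8.5 (E8.5) to E14.5, has 3 libraries; the stages follow each other by 0.5 days up to E12.5 and by 1 day from there. The labels name neither a genotype nor a treatment, and leave unsaid if libraries of 1 stage stem from separate embryos or pools, so the p-values cover the spread between libraries and no more.

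Cadherins are transmembrane proteins that hold like cells together, with their cytoplasmic tails bound to catenins. In many tissues, cells that leave an epithelium lose E-cadherin (Cdh1) and carry N-cadherin (Cdh2) or a cadherin of mesenchyme such as cadherin-11 (Cdh11) in its place, and this exchange is known as the cadherin switch. Snail and Zeb proteins bind E-box sequences in the promoters of Cdh1 and other epithelial genes and repress them, and the cranial neural crest, the source of the frontal bone, is a classical place of their action.

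CPM, the unit of all levels, divides a gene's reads by the library's composition-corrected total, and is given for libraries a, b and c of a stage or as mean ± SD (n = 3). Changes are log2 fold changes of the later stage over the earlier, ± an approximate standard error, from edgeR's quasi-likelihood test over all 33 libraries. Adjusted p-values are Benjamini-Hochberg values over the 20073 genes, and a change passed below 0.05. Totals ran from 14516518 to 19964404 counts per library. The member with the fewest reads, Snai2, had 59 to 512 counts per library and the one with the most, Cdh11, had 2146 to 15964. In bulk tissue, fewer cells of a type and less RNA per cell cannot be told apart.

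In GRCm38 coordinates of GENCODE M21, the repressor genes are Snai1 (ENSMUSG00000042821, chr2:167538195-167542814, plus strand), Snai2 (ENSMUSG00000022676, chr16:14705852-14709385, plus), Zeb1 (ENSMUSG00000024238, chr18:5591860-5775467, plus) and Zeb2 (ENSMUSG00000026872, chr2:44983632-45117395, minus). The cadherin genes are Cdh1 (ENSMUSG00000000303, chr8:106603351-106670246, plus), Cdh2 (ENSMUSG00000024304, chr18:16588877-16809246, minus), Cdh6 (ENSMUSG00000039385, chr15:13028701-13173675, minus) and Cdh11 (ENSMUSG00000031673, chr8:102632095-102785642, minus). Counts cover all exons of a gene, so isoforms are not told apart.

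Several libraries stood apart. Across genes, the correlation of log2 CPM between libraries of 1 stage was 0.9879 to 0.9909 at 9 stages, but 0.9649 to 0.9856 at E12 and as low as 0.9749 at E13.5, where library c was the odd one. The libraries labelled E11.5 went against the labelled order: Ibsp, a bone matrix gene, averaged 15.1 CPM there and 0.037 and 0.204 CPM at E12 and E12.5. Ibsp was at 0 in all libraries of E9 and E9.5 and Runx2, the osteoblast master regulator, averaged 0.575 CPM at E8.5, so these defining markers of the labelled bone were near 0 at the earliest stages, while Alpl, also expressed outside bone, averaged 40.8 CPM at E8.5. Ibsp and Runx2 averaged 464 and 45.0 CPM at E14.5. Comparisons between other stages were also fitted without the libraries labelled E11.5, E12 and E13.5, which the steps into and out of those stages do not allow.

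E-boxes with the letters CAGGTG, or CACCTG on the other strand, were searched in RefSeq promoter windows (GRCm38.p6, 250 bases before to 50 after the start site), because Snail and Zeb proteins bind them. Of 32851 windows of this length, 20.2% held at least 1 match. Snai1 and the epithelial adhesion gene Epcam are shown, since their windows held a match and their transcripts are described below. Cdh1, Cdh11 and Snai2 have no entry in the promoter table used here and were not searched, and Cdh2 and Zeb1 are not shown. The windows of Snai1 and Zeb2 were searched in addition to those the rule for named genes lists. Capitals mark the E-box.
Snai1, chr2:167537945-167538244, plus strand: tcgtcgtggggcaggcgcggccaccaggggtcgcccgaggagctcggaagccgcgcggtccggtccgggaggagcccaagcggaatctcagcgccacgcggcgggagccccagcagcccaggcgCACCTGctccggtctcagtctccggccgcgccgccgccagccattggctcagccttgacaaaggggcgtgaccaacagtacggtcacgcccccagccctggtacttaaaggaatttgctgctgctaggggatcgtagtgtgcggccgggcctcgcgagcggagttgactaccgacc
Epcam, chr17:87635729-87636028, plus strand: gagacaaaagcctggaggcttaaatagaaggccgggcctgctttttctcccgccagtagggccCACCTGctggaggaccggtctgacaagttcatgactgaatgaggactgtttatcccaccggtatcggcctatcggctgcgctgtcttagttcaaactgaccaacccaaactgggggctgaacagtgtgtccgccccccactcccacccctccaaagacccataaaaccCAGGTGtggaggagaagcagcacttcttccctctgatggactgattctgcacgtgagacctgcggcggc
The Snai1 window held 1 E-box, whose first base lies at -126 from the start site, and the Epcam window held 2, at -187 and -19. These letters are not in the window of Cdh6 (chr15, minus strand) or in the 4 windows of Zeb2 (chr2, minus strand). A match is a description of the sequence and not evidence of binding.

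Over the whole course, all 8 genes differed between stages in the test of any change, as did 95.3% of genes tested. Between E14.5 and E8.5, 5 members were higher at E14.5 and 3 were lower, while 74.6% of tested genes passed in either direction, 41.1% higher and 33.5% lower. Cdh2, Cdh6 and Snai1 were lower at E14.5, and Cdh11, Snai2, Zeb2, Zeb1 and Cdh1 were higher. Cdh2 fell by 2.28 on the log2 scale and Cdh1 was higher by 0.29. The libraries of E14.5 and E8.5 did not overlap for any of the 8 members, nor for 80.4% of tested genes (43.8% higher and 36.6% lower at E14.5). The median change of the members was 0.42. The median change of all tested genes was 0.16, and when libraries were scaled by their totals alone it became 0.59; with that shift Snai1 stood at 0.0037 (adjusted p = 0.984) and the other 7 members kept their direction. Of the genes that passed, 55.0% were higher at E14.5, against 71.3% with totals alone and 47.4% with the length trend removed.

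**Figure D1:**
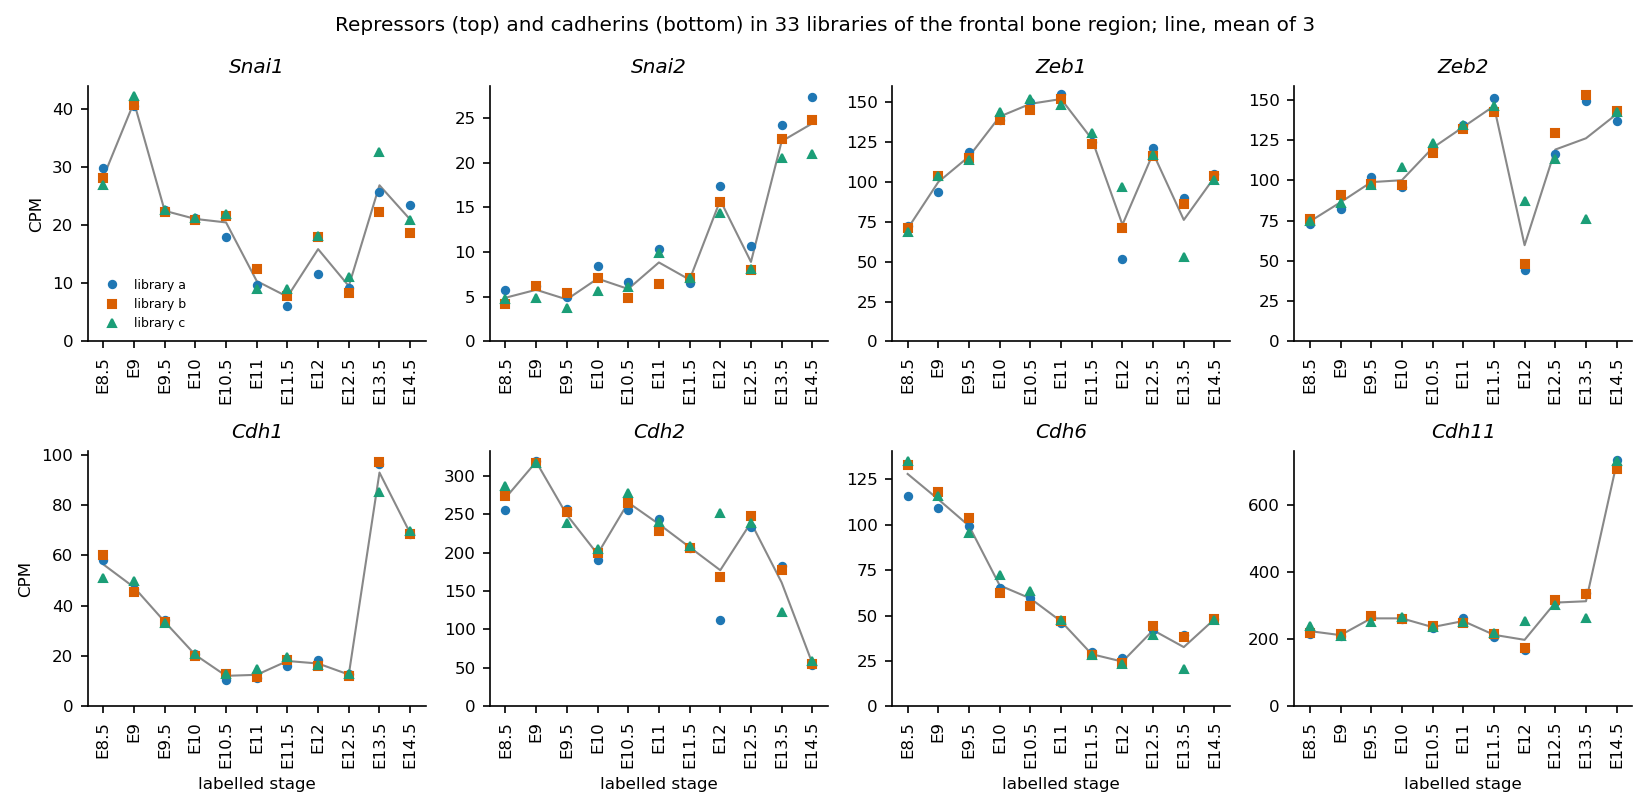
CPM of each member (vertical axes, each from 0) by labelled stage (horizontal axis, stages in order and evenly spaced) in 33 libraries; points are libraries a, b and c and the line joins the means of 3. Cdh1 is low from E10 to E12.5, Cdh2 is lowest at E14.5, Cdh11 is highest at E14.5, and the libraries of E12 and library c of E13.5 spread apart for Zeb1, Zeb2, Cdh2 and Cdh11.

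Snai1 encodes Snail, the zinc finger repressor first linked to E-cadherin repression. Its transcript was highest at E9, at 40.6, 40.8 and 42.2 CPM, against 29.8, 28.2 and 26.9 CPM at E8.5. The E9 libraries all lay above those of every other stage. This early rise came to 0.54 ± 0.15 (adjusted p = 0.008), at a step where 20.2% of tested genes and 2 of the 8 members passed, and it was followed by a fall of 0.87 ± 0.15 at E9.5 (adjusted p = 4.88e-05).

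Snai1 then held at 22.5 ± 0.148, 21.1 ± 0.173 and 20.5 ± 2.17 CPM at E9.5, E10 and E10.5, and averaged 10.4 ± 1.85 and 7.7 ± 1.46 CPM at E11 and E11.5. The drop at E11 was -0.98 ± 0.15 (adjusted p = 8.53e-06). Library values were 15.9 ± 3.7 CPM at E12, with library a at 11.7 CPM below b and c at 18.0 and 18.1 CPM. At E12.5 the transcript stood at 9.17, 8.35 and 11.1 CPM.

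Late in the course Snai1 came back. It reached 25.7, 22.3 and 32.6 CPM at E13.5, against 9.17, 8.35 and 11.1 CPM at E12.5, a rise of 1.49 ± 0.16 (adjusted p = 3.89e-09) with no overlap. At E14.5 it had 23.5, 18.7 and 20.9 CPM, lower than at E8.5 (log2 fold change -0.43 ± 0.15, adjusted p = 0.0106). Without E14.5 library b that call was lost, at -0.35 (adjusted p = 0.0583). Of the 10 neighbouring pairs in the order of Snai1 levels, 8 overlapped; only E9 and E8.5, and E9.5 and E10, were separated.

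Snai2 encodes Slug, the Snail relative that marks migrating neural crest. Its level was low through E10.5 and high at the end: 27.4, 24.8 and 21 CPM at E14.5, against 5.75, 4.19 and 4.73 CPM at E8.5. The groups lay far apart and the rise was 2.32 ± 0.18 (adjusted p = 1.56e-12).

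From E9 to E10.5 Snai2 averaged 5.78 ± 0.8, 4.7 ± 0.887, 7.03 ± 1.4 and 5.87 ± 0.904 CPM. At E11, E11.5, E12 and E12.5 it averaged 8.84 ± 2.15, 6.91 ± 0.332, 15.8 ± 1.53 and 8.9 ± 1.52 CPM. The step with the largest change was E13.5 over E12.5, with 24.2, 22.6 and 20.5 CPM at E13.5 against 10.7, 7.99 and 8.06 CPM at E12.5 (log2 fold change 1.33 ± 0.17, adjusted p = 1.34e-07). E14.5 and E13.5 overlapped and did not differ by the test (0.12 ± 0.16, adjusted p = 0.551). In the order of levels, 8 of 10 neighbouring pairs overlapped, and E13.5 and E12, and E12 and E12.5, were separated.

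The balance between both Snail genes shifted with time. Per exonic kilobase, the ratio of Snai1 to Snai2 was 1.08 ± 0.151 at E14.5, against 7.32 ± 0.996 at E8.5. It was 9.03 ± 1.56 at E9, 4.47 ± 1.07 at E10.5 and 1.59 ± 0.744 at E11, and between 1.28 and 1.51 on average at the stages from E11.5 to E13.5. The mean ratio was above 1 at every stage, but library a of E12 (0.835) and library b of E14.5 (0.938) were below 1.

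Zeb1 encodes a zinc finger and homeodomain repressor of epithelial genes. It climbed while Cdh1 declined: the libraries held 150, 145 and 152 CPM at E10.5, against 72.1, 71.4 and 68.4 CPM at E8.5. The rise was 1.08 ± 0.14 (adjusted p = 2.76e-07). In that contrast 2 members were higher (Zeb1 and Zeb2), 3 were lower (Cdh1, Cdh6 and Snai1) and 3 did not pass, while 49.5% of tested genes passed, 28.2% higher and 21.3% lower. For 5 members the libraries of these stages did not overlap, as for 64.7% of tested genes (35.3% higher, 29.4% lower). Snai1 was 18.0, 21.6 and 22.0 CPM at E10.5, against 29.8, 28.2 and 26.9 CPM at E8.5 (log2 fold change -0.46 ± 0.15, adjusted p = 0.0108), a call that was lost without E10.5 library a (-0.38, adjusted p = 0.0674) and with totals alone (-0.29, adjusted p = 0.131).

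The stage means of Zeb1 were 100 ± 5.78 CPM at E9, 116 ± 2.49 at E9.5, 141 ± 2.6 at E10, 152 ± 3.14 at E11 and 127 ± 3.71 at E11.5. The E12 libraries were spread, at 51.5, 71.2 and 96.9 CPM, and E12.5 stood at 121, 116 and 117 CPM. At E13.5 library c had 52.8 CPM and a and b had 89.8 and 85.9 CPM. The E14.5 libraries had 105, 104 and 101 CPM, higher than at E8.5 by 0.55 ± 0.14 (adjusted p = 0.00103).

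Among Zeb1 levels in order, 5 of 10 neighbouring pairs overlapped, namely E11 and E10.5, E12.5 and E9.5, E14.5 and E9, E13.5 and E12, and E12 and E8.5. Zeb1 was highest at E11 and E10.5. The apparent dip at E12 (-0.79 ± 0.14 against E11.5, adjusted p = 1.71e-05) did not pass once a trend with gene length was removed in each library (-0.19, adjusted p = 0.0511).

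Zeb2, the other Zeb repressor and a gene needed for normal development of neural crest in mice, rose more slowly. The libraries held 137, 143 and 142 CPM at E14.5, against 72.6, 76.2 and 74.4 CPM at E8.5, with no overlap (log2 fold change 0.92 ± 0.18, adjusted p = 3.43e-05). At E10.5 the values were 120, 117 and 123 CPM, also all above those of E8.5 (0.69 ± 0.18, adjusted p = 0.00188).

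Stage means of Zeb2 were 86.3 ± 4.49, 98.8 ± 2.38, 100 ± 6.64, 133 ± 1.47 and 146 ± 4.24 CPM at E9, E9.5, E10, E11 and E11.5. The libraries of E12 had 44.4, 48.0 and 86.8 CPM and those of E13.5 had 149, 153 and 75.8 CPM, so that library c was the highest at E12 and the lowest at E13.5. The Zeb2 fall at E12 (-1.29 ± 0.18, adjusted p = 3.29e-07) came to -0.12 (adjusted p = 0.126) with the length trend removed. At E12.5 it had 116, 129 and 113 CPM, and the change to E14.5 from there did not pass over all libraries (0.24 ± 0.17, adjusted p = 0.261) but did without those labelled E11.5, E12 and E13.5 (0.29, adjusted p = 1.02e-05). In the order of Zeb2 levels 6 of 10 neighbouring pairs overlapped, among them E11.5 and E14.5.

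The ratio of Zeb1 to Zeb2 per exonic kilobase was 1.45 ± 0.0477 at E14.5, against 1.87 ± 0.0753 at E8.5, with its highest mean of 2.77 ± 0.128 at E10 and its lowest of 1.22 ± 0.137 at E13.5. The mean ratio was above 1 at each stage, on the deposited exonic lengths of 10266 and 20203 bases. An antisense gene overlaps each of these genes and the strand setting of the counting is not given in the sources used here. The Zeb2 antisense gene Zeb2os had 2.92% as many counts as Zeb2, and the Zeb1 antisense gene Gm10125 had 2.32% as many as Zeb1.

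**Figure D2:**
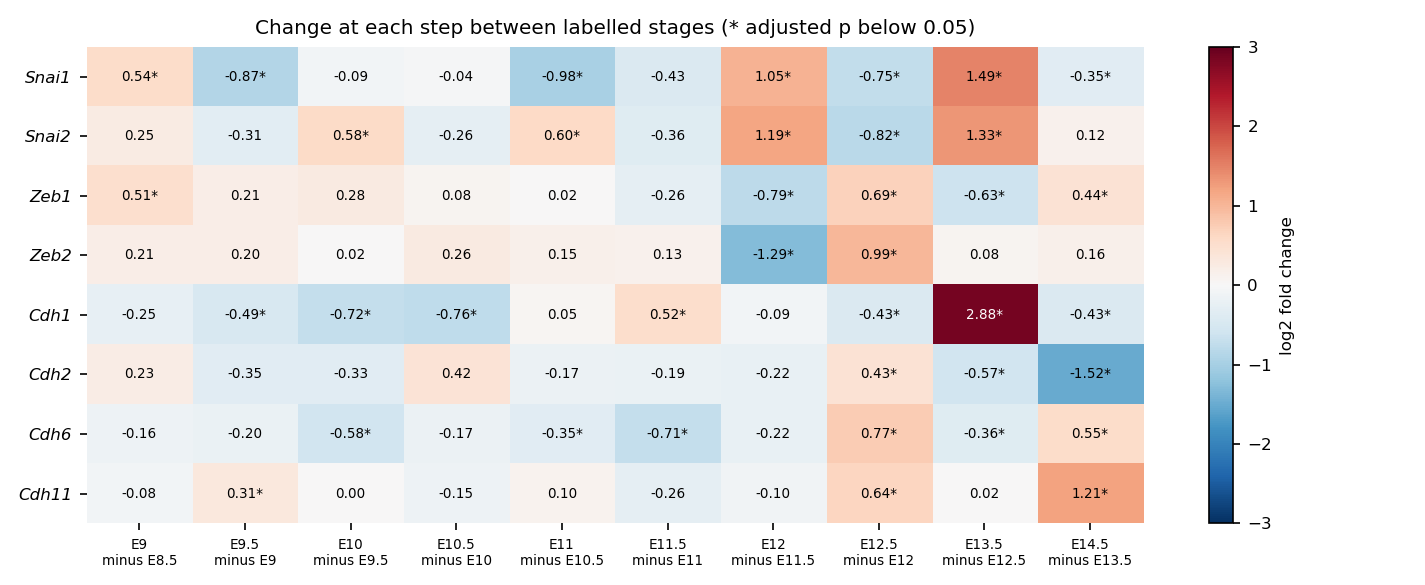
Log2 fold change of each member (rows, repressors above cadherins) at each of the 10 steps between labelled stages (columns, later minus earlier); an asterisk marks an adjusted p below 0.05. The strongest step is the rise of Cdh1 at E13.5 (2.88), followed by the fall of Cdh2 at E14.5 (-1.52) and the rise of Snai1 at E13.5 (1.49).

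Cdh1 encodes E-cadherin, the adhesion molecule of epithelial cell junctions. It fell, stayed low and returned. At E8.5 the libraries had 58.2, 60.0 and 51.1 CPM, at E9 46.8, 45.5 and 49.7 CPM, at E9.5 34.1, 33.6 and 33.1 CPM, and at E10 20.7, 19.8 and 20.8 CPM. Each of these stages lay wholly below the one before.

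The low stretch of Cdh1 followed. The mean was 12.1 ± 1.35 CPM at E10.5, the E11 libraries lay between 11.4 and 14.8 CPM and overlapped with it, and the libraries had 16.0, 18.4 and 19.7 CPM at E11.5. They had 18.3, 16.1 and 16.5 CPM at E12 and 12.9, 12 and 13.0 CPM at E12.5. The means of these stages ran from 12.1 to 18.0 CPM.

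At E13.5 Cdh1 jumped to 96.3, 97.2 and 85.2 CPM, against 12.9, 12 and 13.0 CPM at E12.5. At E14.5 it had 68.4, 68.4 and 69.6 CPM. Both late stages lay above all libraries of the earlier stages.

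The fall from the start to E10.5 was -2.22 ± 0.1 on the log2 scale (adjusted p = 3.58e-17). The steps at E9.5, E10 and E10.5 each passed, with changes of -0.49 ± 0.09, -0.72 ± 0.1 and -0.76 ± 0.1, and that at E9 did not (-0.25 ± 0.09, adjusted p = 0.0552). At the step to E10.5 Cdh1 was the 1 member that passed (adjusted p = 7.88e-06), where 8.46% of tested genes passed, 5.73% higher and 2.74% lower. Between E12.5 and E10.5 Cdh1 did not pass (0.06 ± 0.1, adjusted p = 0.674).

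The late rise of Cdh1 was 2.88 ± 0.1 at E13.5 over E12.5 (adjusted p = 3.13e-19), a step at which 6 of 8 members and 53.1% of tested genes passed. From E13.5 to E14.5 it fell by 0.43 ± 0.09 (log2 fold change -0.43, adjusted p = 0.000246), in a step where 50.9% of tested genes passed. E14.5 against E12.5 gave 2.44 ± 0.1 (adjusted p = 1.87e-18), and E14.5 against E8.5 gave 0.29 ± 0.09 (adjusted p = 0.00682). This last call was lost without E8.5 library c (0.21, adjusted p = 0.0647) and with the length trend removed (0.11, adjusted p = 0.279). In the order of Cdh1 levels, the pairs E11.5 and E12, E12.5 and E11, and E11 and E10.5 overlapped and the other 7 did not.

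Cdh2 encodes N-cadherin, which joins neural progenitors, cranial mesenchyme and cells of the osteoblast lineage. It was the most abundant of the 4 cadherins per exonic kilobase at E8.5, at 33.6 ± 1.93, and stood at 6.93 ± 0.371 at E14.5 on that scale. The libraries had 53.2, 55.4 and 59.1 CPM at E14.5, against 255, 273 and 286 CPM at E8.5. No library of any other stage reached down to the E14.5 values, and the difference was -2.28 ± 0.16 (adjusted p = 1.37e-13).

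Before this drop Cdh2 moved within a narrower band. Its mean was 318 ± 0.833 CPM at E9, 249 ± 9.44 at E9.5, 198 ± 6.75 at E10, 265 ± 11.2 at E10.5, 237 ± 7.94 at E11, 207 ± 1.48 at E11.5 and 239 ± 7.09 at E12.5. The E10.5 and E8.5 libraries overlapped (-0.03 ± 0.15, adjusted p = 0.888), while those of Cdh1 did not. The E12 libraries ran from 112 through 168 to 251 CPM.

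Cdh2 then fell in 2 steps. The E13.5 libraries had 183, 177 and 123 CPM, against 233, 247 and 238 CPM at E12.5 (-0.57 ± 0.15, adjusted p = 0.00238). The step from E13.5 to E14.5 was larger, at -1.52 ± 0.16 (adjusted p = 2.76e-09), again with no overlap. Of the neighbours in the order of Cdh2 levels, E9 and E8.5, E11 and E11.5, E11.5 and E10, and E13.5 and E14.5 were separated and the other 6 pairs overlapped.

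Cdh6 encodes a type II cadherin of neural folds, premigratory neural crest and kidney epithelium. It declined for most of the course. The libraries had 48.1, 47.9 and 47.8 CPM at E14.5, against 116, 133 and 135 CPM at E8.5 (-1.42 ± 0.13, adjusted p = 5.75e-11). Stage means were 114 ± 4.46 CPM at E9, 99.4 ± 4.31 at E9.5, 66.6 ± 5.38 at E10 and 59.4 ± 4.17 at E10.5. They were 46.8 ± 0.688 CPM at E11, 28.7 ± 0.849 at E11.5 and 24.6 ± 1.55 at E12.

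By E10.5 Cdh6 had already fallen by 1.11 ± 0.13 (log2 fold change -1.11, adjusted p = 2.64e-08), and the single steps that passed included E10 over E9.5 (-0.58 ± 0.13, adjusted p = 0.00105) and E11.5 over E11 (-0.71 ± 0.13, adjusted p = 0.000183). The change from E11.5 to E12, where the mean was lowest, did not pass (-0.22 ± 0.14, adjusted p = 0.147). Its sign turned with the length trend removed. Cdh6 was higher at E12.5, with 42.0, 44.2 and 39.4 CPM against 26.4, 24 and 23.4 CPM at E12 (0.77 ± 0.14, adjusted p = 1.65e-05). The E13.5 libraries had 39.5, 37.9 and 20.3 CPM, c being the low one. Neighbours in Cdh6 level overlapped in 4 of 10 pairs: E8.5 and E9, E10 and E10.5, E12.5 and E13.5, and E13.5 and E11.5.

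Cdh11 encodes cadherin-11, also called osteoblast cadherin, which is carried by mesenchyme and bone-forming cells. It was the member with the largest rise to the last stage among the cadherins. The libraries had 733, 708 and 730 CPM at E14.5, against 215, 219 and 238 CPM at E8.5, with a rise of 1.69 ± 0.1 (adjusted p = 4.46e-15).

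Most of that rise fell into a single step. Cdh11 averaged 212 ± 3.82, 262 ± 10.4, 262 ± 4.74, 236 ± 3.4, 254 ± 8.29 and 213 ± 5.74 CPM from E9 to E11.5, and the E12 libraries had 167, 175 and 253 CPM. At E12.5 the values were 310, 316 and 302 CPM and at E13.5 339, 334 and 264 CPM. The step to E14.5 from E13.5 was 1.21 ± 0.1 (adjusted p = 4.07e-11), when Cdh2 fell. Between E10.5 and E8.5 Cdh11 overlapped and did not pass (0.08 ± 0.1, adjusted p = 0.548), and with the length trend removed its sign there turned (-0.17, adjusted p = 0.0139). By Cdh11 level, 7 of 10 neighbouring pairs overlapped, and E14.5 and E13.5, E12.5 and E9.5, and E11 and E10.5 were separated.

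From E10.5 on, 2 members were higher at E12.5 than at E10.5 (Snai2 and Cdh11), 2 were lower (Snai1 and Cdh6) and 4 did not pass, where 35.9% of tested genes passed, 18.8% higher and 17.2% lower. The libraries did not overlap for 6 members and for 54.2% of tested genes. Snai2 was 10.7, 7.99 and 8.06 CPM at E12.5, against 6.66, 4.89 and 6.06 CPM at E10.5 (0.60 ± 0.18, adjusted p = 0.00916), and did not pass without E10.5 library b (0.48, adjusted p = 0.068) or E12.5 library a (0.45, adjusted p = 0.0822). Between E14.5 and E12.5, Snai1, Snai2, Cdh1 and Cdh11 were higher, Cdh2 was lower and 3 did not pass, where 53.8% of tested genes passed, 25.3% higher and 28.6% lower. For all 8 members the libraries did not overlap, as for 64.8% of tested genes. Without the libraries labelled E11.5, E12 and E13.5 all 8 passed in this comparison, as did 12552 of 19703 genes tested in that fit. Zeb1 was then at -0.14 (adjusted p = 0.0092) and Cdh6 at 0.24 (adjusted p = 0.00178).

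The calls were also counted step by step. At E9.5, 1 member was higher and 2 lower, where 22.8% of tested genes passed, and at E10 likewise, where 26.7% passed. At E11, 1 was higher (Snai2) and 2 lower (Snai1 and Cdh6), where 36.5% of tested genes passed (19.2% higher, 17.3% lower), and at E11.5 Cdh1 was higher and Cdh6 lower, where 23% passed. Some of these calls rested on single libraries: Snai2 at E10 was 0.58 (adjusted p = 0.0232) and 0.43 (adjusted p = 0.145) without E10 library a, and Snai2 at E11 was 0.47 (adjusted p = 0.0726) without E11 library a. Cdh6 at E11 was -0.35 (adjusted p = 0.0368) and -0.29 (adjusted p = 0.13) without E10.5 library c, and Cdh11 at E9.5 was 0.31 (adjusted p = 0.0257) and 0.3 (adjusted p = 0.0782) without E9 library a.

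Over all tested genes, the steps into and out of E12, whose libraries spread apart, had the highest shares of calls. At E12, 2 members were higher (Snai1 and Snai2) and 2 lower (Zeb1 and Zeb2), where 68.8% of tested genes passed (35.6% lower). At E12.5, 5 were higher (Zeb1, Zeb2, Cdh2, Cdh6 and Cdh11) and 3 lower (Snai1, Snai2 and Cdh1), where 63% passed (32% higher, 31% lower). The 5 that were higher have exonic lengths of 8066 to 20203 bases, and the 3 that were lower 1621 to 4574 bases. The cause of this split by length was not tested. At E13.5, 3 were higher (Snai1, Snai2 and Cdh1) and 3 lower (Zeb1, Cdh2 and Cdh6), where 27.2% of tested genes were higher. Of these, the Cdh6 fall was -0.36 (adjusted p = 0.0238) and -0.11 (adjusted p = 0.277) without E13.5 library c. The Cdh2 rise at E12.5 was 0.43 (adjusted p = 0.0154) and 0.21 (adjusted p = 0.179) without E12 library a. At E14.5, 3 were higher (Zeb1, Cdh6 and Cdh11) and 3 lower (Snai1, Cdh1 and Cdh2), where 24% of tested genes were higher and 26.9% lower. The Snai1 call there, -0.35 (adjusted p = 0.0468), was lost without E13.5 library c (-0.2, adjusted p = 0.307).

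The 4 cadherins were also set against each other per exonic kilobase within a library. At E14.5 Cdh11 made up 74.9% ± 0.456 of their sum, against 29.5% ± 0.855 at E8.5. Cdh2 made up 6.38% ± 0.321 at E14.5, against 39.4% ± 0.682 at E8.5, and Cdh6 4.9% ± 0.0789 at E14.5, against 16.6% ± 0.665 at E8.5. The share of Cdh1 was 13.9% ± 0.164 at E14.5, within the range of the E8.5 libraries (12.6% to 15.6%), with 3.84% ± 0.33 at E10.5, 3.85% ± 0.253 at E12.5 and 25.9% ± 2.11 at E13.5 between them. At E13.5 the shares of Cdh1 and Cdh2 (25.1% ± 1.7) overlapped.

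**Figure D3:**
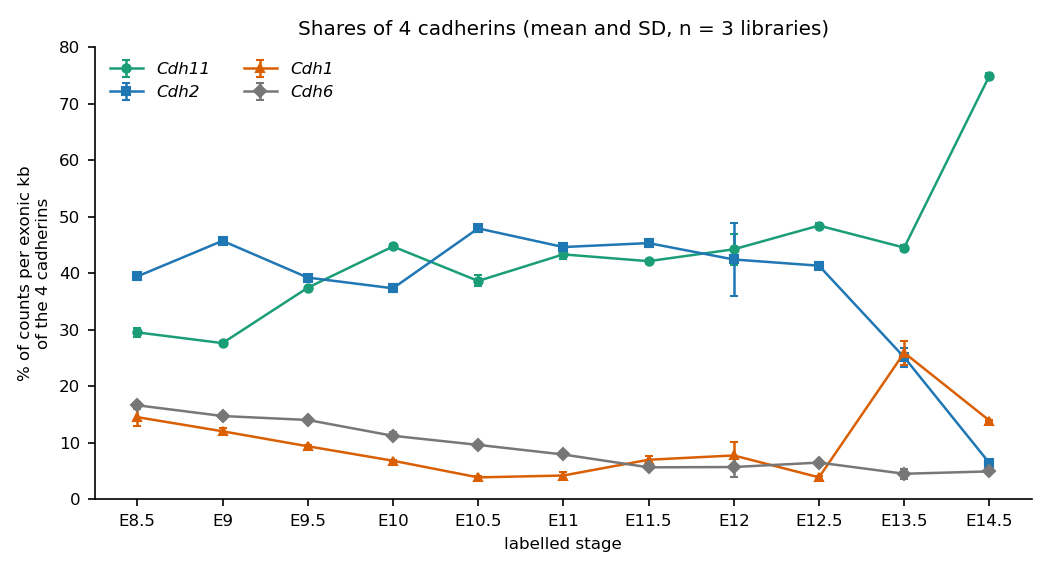
Share of each cadherin in the summed counts per exonic kilobase of Cdh1, Cdh2, Cdh6 and Cdh11 (vertical axis, percent) by labelled stage (horizontal axis); points are means and bars the SD of 3 libraries. Cdh2 and Cdh11 each hold 37.3% to 48.4% from E10 to E12.5, and at E14.5 Cdh11 holds 74.9% and Cdh2 6.38%.

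The ratio of Cdh1 to Cdh2 per exonic kilobase was also taken. It was 2.27, 2.18 and 2.08 in the E14.5 libraries, against 0.402, 0.388 and 0.315 in those of E8.5. The log2 ratio differed by 2.57 ± 0.12, and a two-sided exact permutation test over the 6 libraries gave p = 0.1, the smallest that 3 against 3 allows. The ratio was 0.0729, 0.0842 and 0.083 at E10.5, the lowest mean of the course at 0.08 ± 0.00619, and 0.928, 0.97 and 1.22 at E13.5. Cdh11 to Cdh2 gave 11.8 ± 0.667 at E14.5, against 0.748 ± 0.0181 at E8.5, and 1.78 ± 0.147 at E13.5.

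Other epithelial genes went down and up with Cdh1. A list of 24 genes of junctions, keratins, surface proteases and epithelial splicing, which holds none of the members, had 24 lower and 0 higher at E10.5 than at E8.5 (median -2.35, against 0.09 over all tested genes); with totals alone 22 of them passed. At E14.5 against E12.5, 21 were higher and 0 lower (median 1.18, against -0.03). From end to end, 13 of them rose, 6 fell and 5 did not pass (median 0.41, against 0.16). Their summed level was 588 to 614 CPM at E8.5, 119 to 124 CPM at E10.5, 828 to 1000 CPM at E13.5 and 620 to 633 CPM at E14.5.

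The members of the list with the largest change between the ends were Pkp3, a desmosome plaque protein, at 32.7 ± 1.84 CPM at E14.5 against 3.88 ± 0.489 at E8.5 (3.07 ± 0.18), and the splicing regulator Esrp2, at 35.0 ± 2.04 against 5.4 ± 1.08 CPM (2.69 ± 0.16). Ocln, of tight junctions, rose by 1.46 ± 0.18, and Krt8, a keratin of simple epithelia, changed by -1.39 ± 0.12. Krt18 fell with Krt8 (-1.26), and another keratin of simple epithelia, Krt19, rose (1.03).

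Between E12.5 and E10.5 the list and Cdh1 parted. In that comparison 21 of the 24 genes were higher, 0 were lower and 3 did not pass (median 1.22, against 0.03 over all tested genes), while Cdh1 changed by 0.06. Epcam, an adhesion molecule of most epithelia whose promoter window is printed above, averaged 31.1 CPM at E12.5 against 11.9 CPM at E10.5 (1.39 on the log2 scale). The ratio of Cdh1 to Epcam per exonic kilobase, chosen after its values were seen, was 0.608 ± 0.0367 at E8.5, 0.489 ± 0.0101 at E10.5, 0.196 ± 0.0157 at E12.5, 0.476 ± 0.108 at E13.5 and 0.524 ± 0.0268 at E14.5. The 3 listed genes that did not pass between E12.5 and E10.5 were Cdh3, encoding P-cadherin (0.35), Krt18 (0.35) and Krt19 (0.64).

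**Figure D4:**
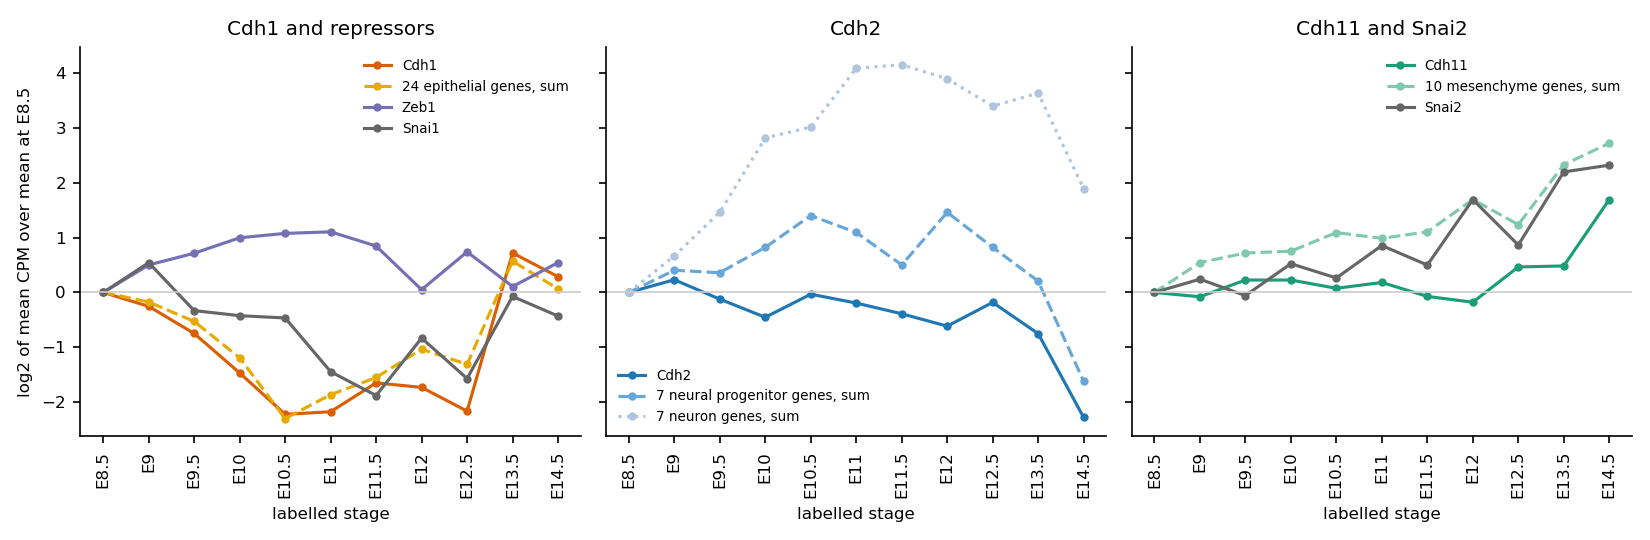
Log2 of the mean CPM over the mean at E8.5 (vertical axis) by labelled stage (horizontal axis) for Cdh1, Zeb1, Snai1 and the sum of 24 epithelial genes (left), for Cdh2 and the sums of 7 neural progenitor and 7 neuron genes (middle), and for Cdh11, Snai2 and the sum of 10 mesenchyme genes (right). Cdh1 and the epithelial sum both fall to E10.5 and are both high again at E13.5; at E12 and E12.5 the sum (293 and 242 CPM) lies further above its E10.5 level (122 CPM) than Cdh1 does, and Cdh2 and the neural progenitor sum both drop at E14.5.

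Markers of tissues beside the bone moved with these members, and their part in the changes was not tested. All 7 epidermis markers were higher at E14.5 than at E8.5, with summed levels of 19.5 to 22.6 CPM at E8.5, 58.9 to 68.2 CPM at E12.5 and 1130 to 1310 CPM at E14.5. They moved with the late rise of Cdh1: Krt5, a keratin of the basal epidermis, averaged 23.4 CPM at E12.5, 410 CPM at E13.5 and 483 CPM at E14.5. Krt15 (9.16 ± 0.27), Krt5 (8.58 ± 0.29), Krtdap (8.37 ± 0.6) and Krt14 (8.24 ± 0.24) led, and Krtdap, of differentiating keratinocytes, was at 0 in all libraries of E10.5 and E12.5. The 8 epithelial transcription factors include opponents of Snail and Zeb such as Grhl2 and Ovol1. Of the 8, 7 rose over the course and 1 did not pass (median 1.79), and 8 were higher at E14.5 against E12.5. Klf5 (3.33 ± 0.23), Grhl1 (3.31 ± 0.32), Trp63 (3.12 ± 0.16) and Ovol1 (2.01 ± 0.42) led at E14.5 against E8.5. Trp63 is on both lists.

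Neural progenitor markers were lower at E14.5, as was Cdh2. Of 7, 6 were lower and 1 higher at E14.5 than at E8.5 (median -3.24), with sums of 704 to 732 CPM at E8.5, 1230 to 1320 CPM at E12.5, 760 to 939 CPM at E13.5 and 225 to 241 CPM at E14.5. Sox3 (-6.53 ± 0.2), Sox1 (-6.26 ± 0.14), Hes5 (-3.31 ± 0.22) and Sox2 (-3.24 ± 0.09) fell most, and Sox1 and Sox3 averaged 0.857 and 0.865 CPM at E14.5. Fabp7, of radial glia, was the gene that rose. Between E10.5 and E8.5, 5 of the 7 rose and 0 fell, while Cdh2 did not pass. The 7 neuron markers were all higher at E14.5 than at E8.5 (median 2.38) and summed to 154 to 158 CPM at E8.5, 1630 CPM at E12.5 and 566 to 579 CPM at E14.5, led by Dcx (5.32 ± 0.27), Snap25 (3.61 ± 0.17), Stmn2 (2.92 ± 0.13) and Elavl3 (2.38 ± 0.08). The part of neural tissue in the Cdh2 values was not tested.

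Mesenchyme markers were higher at E14.5, as were Cdh11 and Snai2, but their courses differed in between. All 10 were higher at E14.5 than at E8.5 (median 2.98), with sums of 9980 to 10500 CPM against 1540 to 1560 CPM, and none was at 0. At E10.5 against E8.5, 7 of the 10 rose and 1 fell (median 1.18), while Cdh11 (0.08) and Snai2 (0.26) did not pass. The sum was 7650 to 7980 CPM at E13.5 against 3480 to 3840 CPM at E12.5, a step at which Cdh11 changed by 0.02 (adjusted p = 0.911) and Snai2 rose by 1.33. The part of these cells in the Cdh11 and Snai2 values was not tested. Dcn (8.58 ± 0.14), Col1a1 (6.70 ± 0.2), Lum (4.77 ± 0.08) and Col1a2 (4.38 ± 0.11), all of them matrix genes, led. Of 6 osteoblast markers 5 were higher and Alpl did not pass (median 5.02), led by Ibsp (10.63 ± 0.29), Col1a1, Runx2 (6.28 ± 0.21) and Sp7 (3.75 ± 0.18). Of 5 endothelium markers 4 were higher and Kdr lower (median 0.79; with totals alone Kdr did not pass), with Pecam1 at 1.99 ± 0.1, Tek at 0.86 ± 0.1, Emcn at 0.79 ± 0.13 and Cdh5 at 0.72 ± 0.15. Of 6 genes tested from a list drawn up for endoderm, 2 were higher and 3 lower (median -0.57). Ttr was at 9 ± 0.36, Foxa2 at -6.16 ± 0.36, Apom at -1.07 ± 0.43 and Foxa1 at -1.06 ± 0.16. Afp, on the same list, was not tested, with 29 counts in all libraries. Which cells carried the transcripts of this list was not tested.

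Among the partners of Snail and Zeb proteins, most transcripts fell. Of 15 cofactors and turnover enzymes, 13 fell, 1 rose and 1 did not pass between E8.5 and E14.5 (median -0.96, against 0.16 over all tested genes); with totals alone 9 were lower and 2 higher, and with the length trend removed none was higher. Ajuba, a LIM protein that joins Snail to its repressor complex, averaged 82.3 ± 2.1 CPM at E14.5 against 276 ± 6.84 CPM at E8.5 (-1.75 ± 0.07). Fbxl14, a ubiquitin ligase subunit that marks Snail for breakdown, changed by -1.75 ± 0.11, the chromatin remodeller Smarca4 by -1.61 ± 0.08 and the corepressor Ctbp2 by -1.57 ± 0.1. The 1 that rose was Btrc, another ubiquitin ligase subunit, at 0.59. At E10.5 against E8.5, 4 were lower, 1 higher and 10 did not pass, and at E14.5 against E12.5, 12 were lower and 1 higher.

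Some of the catenins link cadherins to actin. Of 7 catenins, 6 were tested and Ctnna3 was not, with 53 counts in all libraries together. Over the whole course 2 of the 6 rose, 2 fell and 2 did not pass (median -0.17, against 0.16 over all tested genes). With totals alone 1 fell and the median turned to 0.26, and with the length trend removed 4 fell (median -0.39). Ctnna2, the neural alpha-catenin, rose by 1.51 ± 0.1 and Jup, plakoglobin of desmosomes and adherens junctions, by 1.2 ± 0.12; the Jup change was 1.18 at E14.5 against E12.5. Ctnna1 changed by -0.86 ± 0.06 and Ctnnb1, beta-catenin, by -0.24 ± 0.08, to 1640 ± 63.1 CPM at E14.5 against 1930 ± 5.82 CPM at E8.5. Summed catenin levels were 2010 to 2150 CPM at E14.5 against 2490 to 2510 CPM at E8.5.

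Of 17 other cadherins 11 rose, 3 fell and 3 did not pass over the whole course (median 1.82, against 0.16 over all tested genes). The largest fitted changes were in genes near 0 at E8.5: Cdh18 had no count in the 3 E8.5 libraries and 3.85 ± 0.232 CPM on average in those of E14.5. Against 3 counts summed over E8.5, taken as its floor, Cdh18 was at least 58.4-fold higher, and the list's median was the same with Cdh18 at that bound. Cdh26 averaged 7.69 ± 1.71 CPM at E14.5 against 0.0195 at E8.5, Cdh17 1.86 ± 0.408 against 0.047 CPM and Cdh9 1.63 ± 0.0967 against 0.0429 CPM. Their sum was 317 to 351 CPM at E14.5 against 235 to 246 CPM at E8.5.

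Of 10 further transcription factors of neural crest and mesenchymal transition, Snai3 was not tested, with 135 counts in all libraries. Of the other 9, 4 rose and 5 fell over the course (median -0.89, against 0.16 over all tested genes); with the length trend removed 2 rose and 5 fell (median -1.08), and with totals alone the median was -0.45. Twist2 (4.19 ± 0.22) and Prrx1 (2.99 ± 0.1), of mesenchyme, rose, while Foxd3 (-1.48 ± 0.33) and Sox10 (-1.25 ± 0.13), of early neural crest, fell. Foxd3 and Sox10 averaged 7.42 and 54.1 CPM at E8.5 and 0.556 and 3.13 CPM at E10.5, and stood at 2.66 and 22.7 CPM at E14.5.

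The genes most like each member over the 33 libraries, by Pearson r of log2 CPM among 12912 named genes, are a description, since the libraries share stages. For Cdh1 they were Dsp (0.949), Esrp1 (0.949) and Epha1 (0.939), the first 2 of them on the epithelial list. For Cdh2 they were Nkain1 (0.971), Chd7 (0.969) and Spata13 (0.965), for Cdh6 Amot (0.978), Pus7 (0.968) and Canx (0.966), and for Cdh11 Itgb1 (0.945), Lipa (0.918) and Adcy4 (0.916). For Snai1 they were Ccnd3 (0.951), Fam149a (0.928) and Plekhf1 (0.925), and for Snai2 Anxa6 (0.941), Col26a1 (0.94) and S100a11 (0.939). For Zeb1 they were Mrs2 (0.945), Baz2b (0.935) and Tmem136 (0.925), and for Zeb2 Dst (0.964), Vps13d (0.952) and Adcy9 (0.95). No member was among the 3 most like genes of another member.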

How the data were processed

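Raw read counts for 33 libraries and exonic gene lengths were taken from the deposited table, as named per the file headers. Cutadapt 1.9.1, HISAT2 2.0.1, HTSeq 0.6.1 and the build GRCm38 are named in the submitters' processing notes; annotation release and strand setting: not given in the sources used here. Of 55401 gene identifiers, 55141 had a symbol in GENCODE M21. Columns were tied to stages by name; their letters a, b and c could not be tied to the labels' replicate numbers. No pair of libraries of a stage agreed within sampling noise.

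Tests used edgeR 4.0.16 (R 4.3.3) on the counts (TMM factors 0.797 to 1.18, expression filter by stage, a mean per stage, 22 residual degrees of freedom), after tests on simulated data. The members and gene lists were chosen with earlier results of these data known. Named genes were the 8 members and the up to 4 genes of each list with the largest change that passed between E14.5 and E8.5. The 3 genes most like each member (mean of at least 5 CPM in the highest stage) were also named. E-boxes were to be searched in the promoters of the 4 cadherins and Epcam. Of these, Cdh1 and Cdh11 had no promoter entry, Cdh2 is not shown, and results are given for Cdh6 and Epcam. Other genes were named after their values were seen. Log2 CPM used a prior count of 2. Alternatives were DESeq2 1.42.0 and its size factors, totals alone, no filter and a stricter one, a block on the letter, removal of a gene length trend, fewer libraries, and each library left out in turn. Figures were drawn with matplotlib 3.10.9.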

Additional observations from a re-analysis of the deposited data

How the results depend on the processing

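Counts of members that passed were unchanged in side or within 1.5 times under the alternatives run, except between E14.5 and E12.5. There, without the libraries labelled E11.5, E12 and E13.5, all 8 passed, as did 12552 of 19703 tested genes. In the fit of all libraries 5 members and 10806 of 20073 tested genes passed. Leaving out each library in turn, 7 to 8 members passed between E14.5 and E8.5, 4 to 5 between E10.5 and E8.5, 3 to 5 between E12.5 and E10.5 and 5 to 6 between E14.5 and E12.5, and the log2 ratio of Cdh1 to Cdh2 differed by 2.46 to 2.64. No effect common to libraries of the same column letter was seen. Over 165 pairs with the same letter the median correlation of deviations was -0.00313 (range -0.582 to 0.18, 5 over 0.1). It was 0.000772 over pairs with other letters. Pairing of libraries other than by letter was not tested. With the replicate block on the letter, 14893, 9751, 7015 and 10629 genes passed in the contrasts E14.5 minus E8.5, E10.5 minus E8.5, E12.5 minus E10.5 and E14.5 minus E12.5, and 8, 5, 4 and 5 members. Among genes that passed, the share that was higher was 57.0% between E10.5 and E8.5, 52.2% between E12.5 and E10.5 and 46.9% between E14.5 and E12.5; it was 72.5%, 68.3% and 58.3% with library totals alone, and 40.4%, 48.5% and 45.9% with the length trend removed.

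Directions turned mostly where the change was near 0; the values are log2 fold changes and the cause was not tested. With library totals alone they were 0.0037 for Snai1 (E14.5 minus E8.5), 0.0014 for Snai1 (E10 minus E9.5), 0.14 for Cdh2 (E10.5 minus E8.5), 0.09 for Cdh11 (E10 minus E9.5) and 0.11 for Zeb2 (E12.5 minus E10.5). With the gene length trend removed they were -0.17 for Cdh11 (E10.5 minus E8.5), 0.0019 for Snai1 (E10.5 minus E10), -0.06 for Zeb1 and -0.14 for Zeb2 (E11 minus E10.5), and 0.2 for Cdh2, 0.4 for Cdh11 and 0.31 for Cdh6 (E12 minus E11.5). Zeb2 then stood at -0.21 (E10 minus E9.5), -0.01 (E12.5 minus E12) and -0.01 (E14.5 minus E13.5). Without this removal the Zeb2 change at E12.5 over E12 was not near 0. It was a rise that passed, at 0.99 ± 0.18 (adjusted p = 2.25e-05). For Zeb2, E12.5 minus E10.5 was 0.02 with DESeq2 size factors, 0.01 with the stricter filter, 0.02 with DESeq2, 0.00025 without the libraries labelled E11.5, E12 and E13.5 and 0.02 with only the libraries compared. For Zeb2, E10 minus E9.5 was -0.0025 with DESeq2 size factors, -0.00031 with no filter, -0.00018 with the stricter one, -0.0026 with DESeq2 and -0.01 without the libraries of those 3 stages.

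Leaving out 1 library in turn, changes that turned ranged from -0.11 to 0.01 for Cdh2 (E10.5 minus E8.5), -0.02 to 0.12 for Cdh1 (E12.5 minus E10.5), -0.08 to 0.12 for Cdh1 (E11 minus E10.5), -0.09 to 0.05 for Snai1 (E10.5 minus E10), -0.04 to 0.02 for Cdh11 (E10 minus E9.5) and -0.05 to 0.12 for Cdh11 (E13.5 minus E12.5). For Zeb2 they ranged from -0.07 to 0.03 (E12.5 minus E10.5), -0.04 to 0.05 (E10 minus E9.5), -0.08 to 0.34 (E13.5 minus E12.5) and -0.11 to 0.32 (E14.5 minus E13.5).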
